A study of Xenopus tropicalis with 7 samples.

Results

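The proneural bHLH and ebf genes are transcription factor genes that turn dividing neural precursors into neurons. They were followed here by 9 symbols, *neurog1*, *neurog2*, *neurog3*, *neurod1*, *neurod4*, *atoh1*, *atoh7*, *ebf2* and *ebf3*. These were chosen by name, with earlier results of these data known. All 9 were found among the 19884 genes of the count table and all 9 passed the filter on low counts, which left 16944 genes. Poly(A) RNA had been sequenced from whole *X. tropicalis* embryos of the wild-type Nigerian (Cam4) strain, which were kept at 25°C. The 3 Xbra/Xbra3 knockdown (KD) libraries came from early tadpoles (stage 32) that had received 20 ng of splice- and translation-blocking morpholinos against *Xbra* and *Xbra3* at the 1-cell stage. The 3 control libraries came from stage 32 tadpoles that had received 20 ng of a control morpholino at that stage. A single library of uninjected embryos at stage 20, an early tail bud stage, had no replicate. Morpholinos are antisense oligonucleotides that reach every cell of an embryo injected at the 1-cell stage and that lower the protein without changing the gene, and each library was made from total RNA equal to that of 2 embryos.

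As background, proneural basic helix-loop-helix (bHLH) proteins bind E-box sequences as dimers with ubiquitous E proteins. The neurogenins and Atoh proteins act first and select precursors. They switch on *delta* ligands, which hold back the neighbouring cells through Notch, and they switch on later factors such as Neurod1, Neurod4, Ebf2 and Ebf3, which drive neurons through differentiation. In *Xenopus* embryos, forced expression of a neurogenin or of Neurod1 makes extra neurons in the ectoderm. Id proteins lack the basic region and block these dimers, and Hes proteins repress proneural genes downstream of Notch.

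No genome, transcript or protein sequence of the 9 genes was used here. The study designed RT-qPCR primers for 1 of them, *ngn3*, on a transcript that RefSeq (UCB_Xtro_10.0) assigns to *neurog3*. The name *ngn3* was linked to *neurog3* through that transcript, and the primer sequences were not aligned. They are shown as the sequences with which the study measured *ngn3*.
ngn3 forward primer: caccttgcaggacacacaac
ngn3 reverse primer: ctgactcgcttctcctctgc

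Levels are given in CPM, the reads of a gene per 1000000 reads of the library after TMM scaling of all 7 libraries together. Totals were 73740300 to 108103730 reads in the KD libraries, 79219418 to 120160026 reads in the control libraries and 119004036 reads at stage 20. For the 9 genes the lowest count at stage 32 was 198 reads (*atoh1* in control replicate 2), so counting error was at most 7.11% of any stage 32 value and the spread between libraries was the larger error for most genes. The knockdown target *Xbra3* (listed as *t2*) had 79, 41 and 61 reads in the KD libraries against 3056, 1634 and 1888 in the controls, the direction that the labels imply. RNA of the other target, *Xbra* (listed as *t*), fell less, to 0.519-fold. It had 875, 617 and 691 reads in the KD libraries against 1959, 1113 and 1239 in the controls. Replicate 2 of both groups stood apart in some late neuronal genes. The rod gene *rho* was at 62.4 CPM in control replicate 2 and 9.05 CPM in KD replicate 2, against at most 0.543 CPM in the other 4 stage 32 libraries. CPM was not divided by transcript length, so levels are compared between libraries, and a higher CPM of one gene than of another does not rank their abundance. RNA came from whole embryos, in which more cells of a type and more RNA per cell cannot be told apart.

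In the fit without a replicate term, *neurog3*, *neurog1* and *ebf2* rose in Xbra/Xbra3 KD embryos at stage 32, by 2.13-fold, 1.67-fold and 1.28-fold, and no member was called lower. These 3 were called by edgeR's quasi-likelihood test at a false discovery rate (FDR, Benjamini-Hochberg over all 16944 genes) below 10%. The background was 7.44% of all genes called higher and 6.98% called lower. Over all genes 51.6% of the calls were higher, but 65.5% with scaling to library size alone and 63.7% with scaling to 4 reference genes. *neurog2*, *atoh1*, *ebf3* and *neurod4* had positive estimates and *neurod1* and *atoh7* negative ones, none of them past the threshold. The median log2 fold change of the 9 genes was 0.33, against 0.01 over all genes tested. Since the genes were chosen with earlier results of these data known, their counts and median are descriptions beside the background. When the fit compared libraries of the same number (a replicate block), *neurog2* was also called higher and *atoh7* was called lower, making 4 higher and 1 lower, where the background was 19.2% higher and 19.0% lower. Leaving out 1 library at a time lowered the count of members called higher to between 0 (without control replicate 3) and 2 (without control replicate 1), and it was 1 without each of the other 4 libraries. The calls higher over all genes fell in the same fits, from 1261 to 433 without control replicate 3 and to between 614 and 918 in the others.

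**Figure D1:**
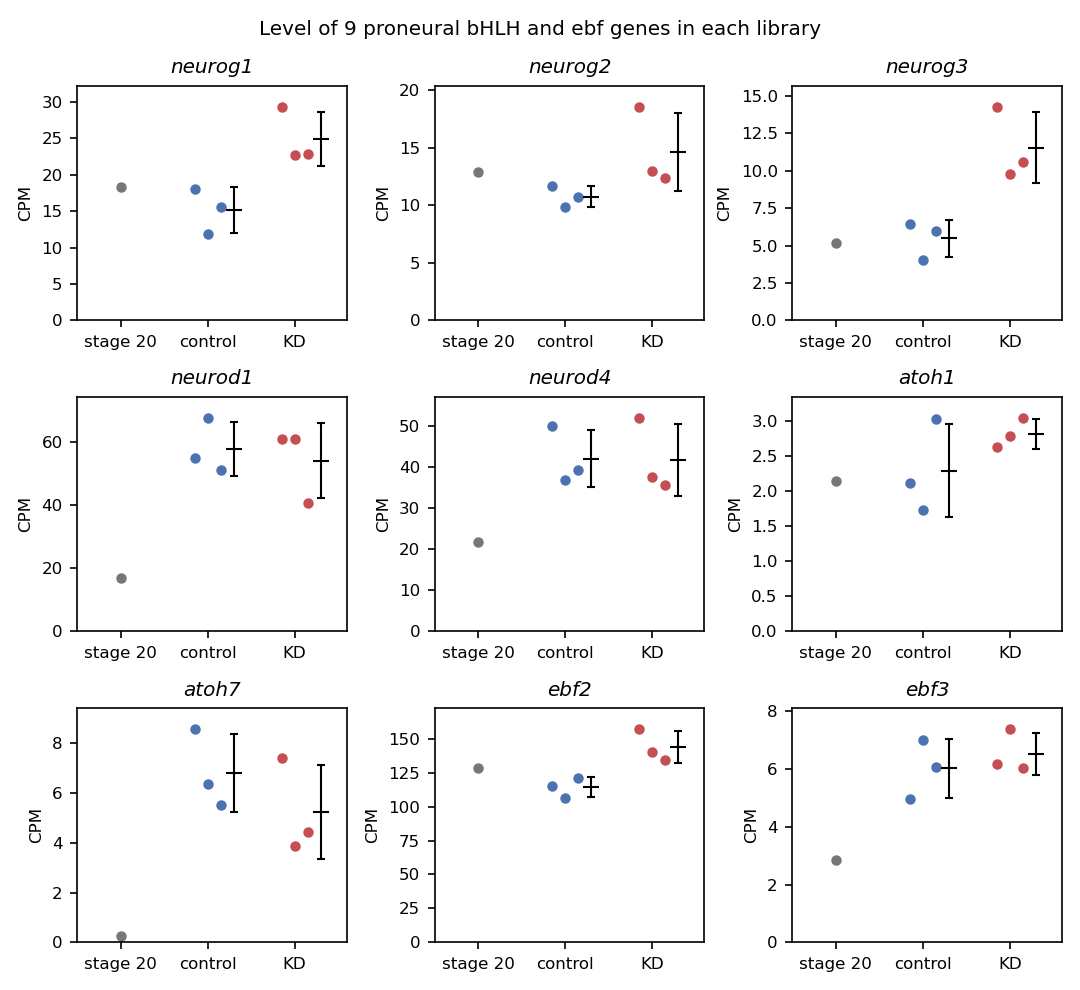
Each panel plots the level of 1 gene in CPM (linear axis from 0) for the stage 20 library (grey), the 3 control libraries (blue, replicates 1 to 3 from left to right) and the 3 KD libraries (red, same order), with black bars for the mean and SD of 3 libraries. The KD points lie above all control points for *neurog1*, *neurog2*, *neurog3* and *ebf2*, and stage 20 lies below every stage 32 point for *neurod1*, *neurod4*, *atoh7* and *ebf3*.

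The neurogenins are the early proneural factors of the cranial placodes, the neural crest derived ganglia and the neural tube. *neurog3* (ENSXETG00000026423), a neurogenin of the dorsal spinal cord that the study also followed by RT-qPCR (not analysed here), stood at 14.2, 9.80 and 10.6 CPM in KD replicates 1, 2 and 3. In control replicates 1, 2 and 3 it stood at 6.43, 4.07 and 5.96 CPM. Every KD library was above every control library, with replicate 1 highest and replicate 2 lowest in both groups. The change was 2.13-fold (log2 fold change 1.09 with a standard error of 0.23, edgeR FDR 0.0294), and the log2 differences within the same-numbered pairs were 1.15, 1.27 and 0.83. Leaving out control replicate 3 put *neurog3* at FDR 0.102, and the other 5 such fits kept it below 10%.

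*neurog1* (ENSXETG00000007898), the neurogenin of sensory ganglia in mouse, measured 29.3, 22.6 and 22.8 CPM in the KD libraries. The control libraries held 18.0, 11.8 and 15.6 CPM. The groups did not overlap, and control replicate 2 was the lowest library. It rose 1.67-fold (log2 fold change 0.74 with a standard error of 0.19, edgeR FDR 0.0551). Without a replicate term this call was lost in most fits with 1 library left out, where the log2 fold change was 0.57 to 0.88. The FDR was 0.102 to 0.157 in 5 of the 6 such fits with 1 library left out and 0.0635 in the sixth, without control replicate 1. With the replicate block its FDR was 0.00227.

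*neurog2* (ENSXETG00000024100), whose *X. laevis* counterpart selects the primary neurons of the neural plate, measured 18.5, 13.0 and 12.4 CPM in the KD libraries. It stood at 11.7, 9.87 and 10.8 CPM in the controls. The groups did not overlap, but KD replicates 2 and 3 lay close above the highest control and KD replicate 1 stood well above the rest. The log2 fold change of 0.46 (standard error 0.19) had an FDR of 0.170 from edgeR, and 0.0299 with the replicate block. Without KD replicate 1 it was 0.26. Over all genes, 14.9% had all 3 KD libraries above all 3 control libraries, as did 4 of the 9 members (the 3 neurogenins and *ebf2*).

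*neurod1* (ENSXETG00000014068) and *neurod4* (ENSXETG00000004295) encode bHLH factors that act after the neurogenins in differentiating neurons. *neurod1* measured 60.8, 60.9 and 40.5 CPM in the KD libraries and 54.9, 67.4 and 51.05 CPM in the controls. The groups overlapped, with the highest level in control replicate 2 and the lowest in KD replicate 3. Its log2 fold change was -0.08 (standard error 0.19, FDR 0.840 from edgeR), with a 95% interval from -0.60 to 0.44. Without control replicate 2, the library in which *rho* stood highest, its log2 fold change was 0.03. *neurod4* measured 51.8, 37.5 and 35.7 CPM in the KD libraries and 49.9, 36.8 and 39.2 CPM in the controls. Replicate 1 was the highest in both groups, and the groups overlapped throughout. Its log2 fold change was 0.01 (standard error 0.18, FDR 0.988 from edgeR), with a 95% interval from -0.50 to 0.51. A rise as large as that of *neurog3* lies outside both intervals, while a rise as small as that of *ebf2* lies inside both. Both intervals come from the fit without a replicate term. With the replicate block the log2 fold change was -0.09 (standard error 0.11) for *neurod1* and 0.0 (standard error 0.09) for *neurod4*. The block gave 0.35 (standard error 0.09) for *ebf2*.

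**Figure D2:**
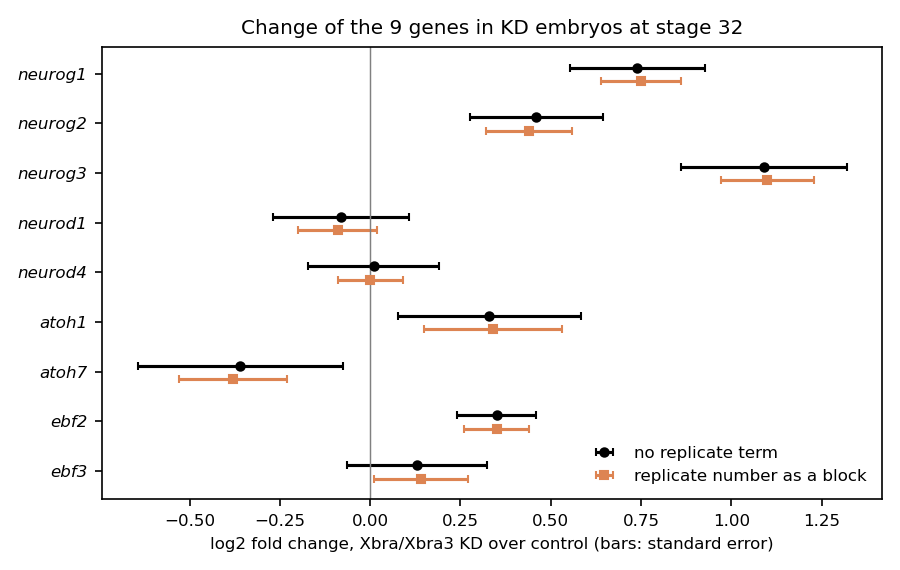
The log2 fold change of each gene in Xbra/Xbra3 KD over control embryos (horizontal axis) is drawn with its standard error, without a replicate term (black circles) and with a replicate block (orange squares). Estimates hardly move between the fits (0.74 and 0.75 for *neurog1*, -0.36 and -0.38 for *atoh7*), while the standard errors are smaller with the block.

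The balance between the neurogenins and the neurod genes was also read within each library, where no scaling enters. The reads of *neurog1*, *neurog2* and *neurog3* together were 0.551, 0.462 and 0.601 times those of *neurod1* and *neurod4* together in the KD libraries. In the controls they were 0.345, 0.247 and 0.358 times. The KD mean of 0.538 ± 0.0706 (SD, n = 3 libraries) was 1.70 times the control mean of 0.317 ± 0.0607, and the groups did not overlap. Within the neurogenins the mix also differed. *neurog3* had 0.769, 0.754 and 0.853 times the reads of *neurog2* in the KD libraries, against 0.552, 0.413 and 0.553 times in the controls. *neurog1* had 1.58, 1.74 and 1.84 times the reads of *neurog2* in the KD, against 1.55, 1.20 and 1.45 times in the controls, where KD replicate 1 and control replicate 1 lay close together. The genes were chosen with earlier results of these libraries known, so these ratios are descriptions and carry no p-value.

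**Figure D3:**
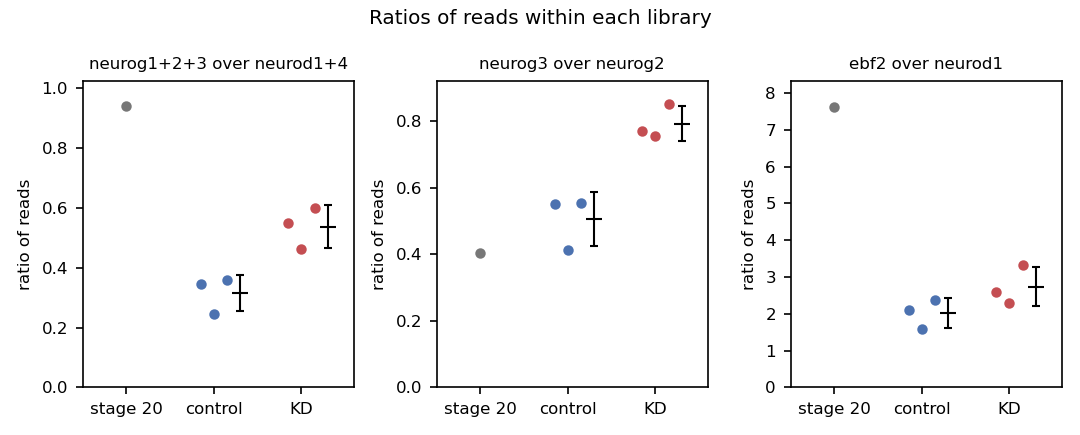
Ratios of reads within each library (vertical axes from 0) are plotted for stage 20 (grey, 1 library), control (blue) and KD embryos (red), with black bars for the mean and SD of 3 libraries. The neurogenin to neurod ratio is 0.940 at stage 20 and higher in each KD library than in any control library. The *ebf2* to *neurod1* ratio overlaps between KD and control, although each KD library is above its same-numbered control (2.58, 2.30 and 3.32 against 2.09, 1.58 and 2.37).

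*ebf2* and *ebf3* encode helix-loop-helix factors of the Collier/Olf/EBF family. In *Xenopus* *ebf2* acts between neurogenin and *neurod1*, and *ebf3* acts later, downstream of *neurod1*. *ebf2* (ENSXETG00000010153) measured 156.9, 140.2 and 134.4 CPM in the KD libraries and 115.0, 106.5 and 121.1 CPM in the controls. The groups did not overlap, and the gap between KD replicate 3 and control replicate 3 was small. It rose 1.28-fold (log2 fold change 0.35 with a standard error of 0.11, edgeR FDR 0.0955), just inside the threshold. It lost the threshold in all 6 fits with 1 library left out (FDR 0.150 to 0.233) and in 3 of the 10 other alternatives, while the replicate block gave 0.0222. *ebf3* (ENSXETG00000011309) measured 6.16, 7.37 and 6.05 CPM in the KD libraries and 4.97, 7.01 and 6.08 CPM in the controls. The groups overlapped, and replicate 2 was the highest in both. Its log2 fold change was 0.13 (standard error 0.19, FDR 0.721 from edgeR). *ebf3* was the only member whose reads were divided evenly between annotated transcripts, with 52.5% on ENSXETT00000024690 and 47.5% on ENSXETT00000027874. The first had a log2 ratio of KD to control means of 0.29 and the second of -0.08. Which of them received a pair that fits both is not given in the sources used here.

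Neither atonal gene passed the threshold. *atoh1* (ENSXETG00000023279), the proneural gene of the dorsal hindbrain and spinal cord and of hair cells in vertebrates, measured 2.62, 2.79 and 3.04 CPM in the KD libraries. It stood at 2.12, 1.73 and 3.03 CPM in the controls. Each KD library was above its same-numbered control, but control replicate 3 equalled the highest KD level within 0.01 on the log2 scale. The log2 fold change was 0.33 (standard error 0.25, FDR 0.463 from edgeR).
*atoh7* (ENSXETG00000023575), which specifies retinal ganglion cells, measured 7.41, 3.89 and 4.45 CPM in the KD libraries and 8.56, 6.36 and 5.53 CPM in the controls. It was the only member lower in the KD library of all 3 pairs (log2 differences of -0.21, -0.71 and -0.31), yet KD replicate 1 lay above control replicates 2 and 3. The log2 fold change was -0.36 (standard error 0.28, FDR 0.480 from edgeR), and the replicate block gave FDR 0.0873. Of 12 retina genes measured beside it, none was called by edgeR without the block. With the block 2 were called higher and 3 lower, where 19.2% and 19.0% of all genes were. The summed level of the 12 was 360.7 to 445.9 CPM in KD embryos and 333.4 to 549.8 CPM in the controls. Their part in the value of *atoh7* was not tested.

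At stage 20 the neurogenins, *atoh1* and *ebf2* were near their later level, while *neurod1* and *atoh7* stood well below it and *ebf3* and *neurod4* lay near 0.5 times it. The stage 20 library was compared with the control mean at stage 32, with no test and a fold of 2 as the limit, past which 22.8% of all genes stood lower and 12.8% higher at stage 20. Of the members 3 stood lower by that limit (*neurod1*, *atoh7* and *ebf3*) and 0 higher. The count was 2 to 4 under the alternatives, since *ebf3* and *neurod4* lay close to the limit. On the log2 scale *ebf3* was at -1.08, but at -0.96 without control replicate 2 and at -0.98 for its transcript with the most reads. *neurod4* was at -0.94, but at -1.03 without control replicate 2 and at -1.05 with library size alone. The stage 20 embryos were also uninjected, so stage and injection cannot be told apart. *neurog1*, *neurog2*, *neurog3*, *atoh1* and *ebf2* stood at 1.21, 1.196, 0.947, 0.933 and 1.12 times the control mean. For *neurog3* and *atoh1* the stage 20 level of 5.197 and 2.14 CPM lay inside the range of the controls. *neurod1* stood at 16.9 CPM, 3.43 times below the control mean, and *ebf3* at 2.84 CPM, 2.12 times below. *neurod4* stood at 21.8 CPM, 1.92 times below, short of the limit. *atoh7* had only 26 reads at stage 20 (0.241 CPM), 28.3 times below the control mean, with a counting error of 19.6%. The level of *neurog3* in the stage 20 library was also 0.450 times its KD mean. Each KD library was above the stage 20 library and all 3 controls for this gene. For *neurog1* and *ebf2*, too, each KD library was above the stage 20 library and above all 3 controls. *neurog2* differed, since KD replicate 3 (12.4 CPM) lay below the stage 20 library (12.9 CPM). By contrast, the neurogenin to neurod ratio in the KD libraries (0.462 to 0.601) lay between the controls (0.247 to 0.358) and stage 20 (0.940). Levels between stage 20 and stage 32 were not measured in these libraries. Of the called genes named from the network lists below, *olig4*, *ferd3l*, *hes1*, *lfng* and *prdm14* were higher at stage 20 than their KD mean. *ascl3*, *ebf1*, *hes2*, *tlx3*, *isl2*, *dpysl3*, *prph* and *tubb2b* were lower at stage 20 than theirs. Whether stage had a part in the KD values was not tested.

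The wider proneural network was read from lists written from general knowledge, with earlier results of these data known. Over all genes 7.44% were called higher and 6.98% lower, the shares to set beside each list. With the replicate block these shares were 19.2% and 19.0%. Of 13 other neural bHLH and ebf genes tested (5 more had no row under their symbol), 4 were called higher and none lower, with a median log2 fold change of 0.26. *olig4*, an Olig family bHLH gene, rose 4.30-fold, from 1.81 ± 0.815 to 7.56 ± 2.82 CPM (SD, n = 3 libraries, FDR 0.0256 from edgeR). At stage 20 it stood at 18.1 CPM. *ferd3l*, a bHLH gene of the ventral midline in mouse, rose 2.08-fold (FDR 0.0972) and *ascl3*, of the achaete-scute family, rose 1.98-fold (FDR 0.0297). The fourth was *ebf1*, a paralog of the ebf members, at 4.53 ± 1.35 against 2.38 ± 0.591 CPM (FDR 0.0915); it falls outside the naming rule and was named after its value was seen. *nhlh1*, a neurogenin target in *Xenopus* and the gene with the highest CPM of the list, was at 121.9 ± 4.91 CPM in KD embryos and 131.1 ± 5.21 CPM in the controls (log2 fold change -0.09, FDR 0.639).

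**Figure D4:**
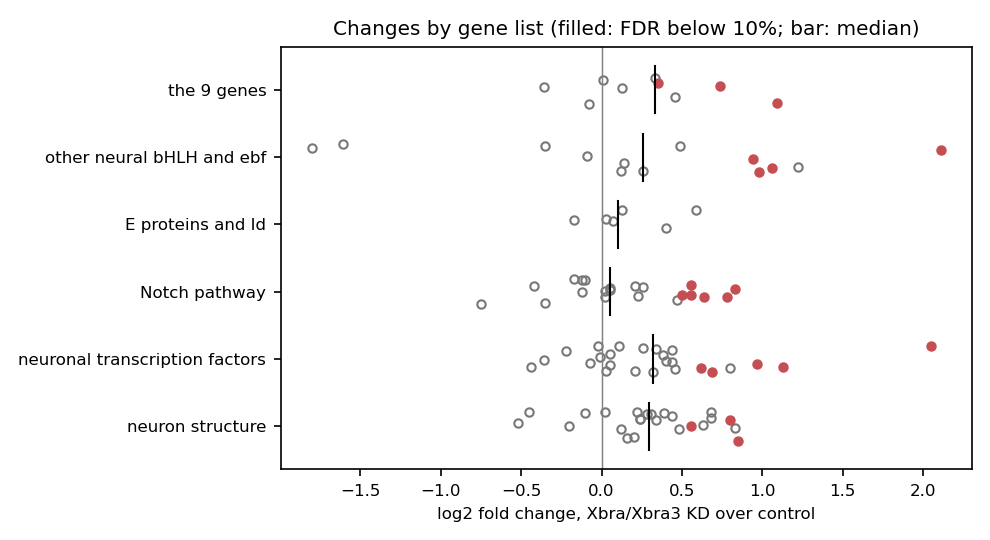
Log2 fold changes of KD over control (horizontal axis) are plotted for the 9 genes and for the genes of 5 lists, 1 point a gene, filled red where the FDR was below 10% and open grey where not, with a black bar at each median. All filled points lie to the right of 0, and the medians range from 0.05 for the Notch pathway to 0.33 for the 9 genes.

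Of the 6 dimer partners and inhibitors tested, the E proteins *tcf3*, *tcf4* and *tcf12* and the Id genes *id2*, *id3* and *id4*, none was called by edgeR (2 had an unadjusted p below 0.05), 1 was called by DESeq2, and the median log2 fold change was 0.10. *id3*, with the highest CPM, was at 1203 ± 205 CPM in KD embryos and 810.4 ± 199.95 CPM in the controls (1.504-fold, FDR 0.138), and the replicate block gave FDR 0.00239.
Of 21 genes of the Notch pathway tested, 6 were called higher and none lower, with a median of 0.05. The 3 called genes with the largest changes were *hes1*, a Notch-responsive repressor of proneural genes (1.77-fold, from 14.4 ± 2.98 to 25.2 ± 1.61 CPM, FDR 0.0268), *hes2* (1.71-fold, FDR 0.0928) and *lfng*, which encodes a glycosyltransferase that modifies Notch (1.56-fold, FDR 0.0732). *dll1*, the ligand that neurogenins switch on and the gene with the highest CPM of the list, measured 277.7, 164.2 and 179.6 CPM in the KD libraries and 229.9, 131.3 and 182.4 CPM in the controls. The groups overlapped, and replicate 1 was highest in both (log2 fold change 0.21, standard error 0.25, FDR 0.657). With the replicate block 8 Notch pathway genes were called higher and 3 lower, among them *hey2*, a Hes-related repressor gene named after its value was seen (log2 fold change -0.75, FDR 0.111, and 0.0251 with the block).

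Of 25 transcription factors of differentiating neurons, 5 were called higher and none lower, with a median log2 fold change of 0.32. *prdm14*, which in zebrafish acts in the outgrowth of motor axons, rose 4.14-fold (from 1.495 ± 0.371 to 6.09 ± 0.796 CPM, FDR 0.00509 from edgeR). *tlx3*, a homeobox gene of sensory neurons, rose 2.19-fold (from 11.7 ± 1.80 to 25.2 ± 2.11 CPM, FDR 0.00840), and *isl2*, a LIM homeobox gene of motor and sensory neurons, rose 1.96-fold (FDR 0.0527). *myt1*, a zinc finger gene that promotes neuronal differentiation with the neurogenins in *Xenopus*, had the highest CPM and was not called (203.7 ± 49.4 against 163.2 ± 19.1 CPM, FDR 0.290).
Of 24 genes for the structure of neurons, 3 were called higher and none lower, with a median of 0.29. *dpysl3*, which acts in axon growth, rose 1.80-fold (FDR 0.0469), *prph*, a neuronal intermediate filament gene, rose 1.75-fold (FDR 0.0308), and *tubb2b*, a neural tubulin gene with the highest CPM of the list, rose 1.47-fold (from 605.8 ± 86.9 to 880.7 ± 67.7 CPM, FDR 0.0623). With the replicate block 11 of the neuronal transcription factors and 13 of the structural genes were called higher, with none and 1 called lower. The background with the block was 19.2% higher and 19.0% lower. Without control replicate 2 the structural genes called higher were 7, and without control replicate 3 there were 0. Over all genes, these 2 fits called 918 of 16787 and 433 of 16883 higher.

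Markers of other tissues moved in the same libraries. All 13 muscle genes tested were lower in the KD, 12 of them called, and their summed level was 8338 to 10337 CPM in the KD libraries against 21312 to 21898 CPM in the controls. Of 16 neural progenitor genes 8 were called higher and none lower, their median log2 fold change was 0.58, and their summed level was 1063 to 1399 CPM in the KD against 883.8 to 1073 CPM in the controls. A large part of these sums was *fabp7*, named after its value was seen, which went the other way (log2 fold change -0.41, edgeR FDR 0.579). It measured 170.1 to 372.4 CPM in the KD libraries and 222.8 to 573.5 CPM in the controls, highest in control replicate 2. With the replicate block 11 of the 16 progenitor genes were called higher and 1 lower. At stage 20 the 8 called without the block stood above every control library, and all of them but *notch1* above their KD mean. Of the uncalled ones, *gsx1*, *pax7* and *fabp7* stood below every control at stage 20. Whether stage had a part in these KD values was not tested. Of 12 placode genes 3 were called higher and none lower, and 3 higher and 2 lower with the block. The shares over all genes were 7.44% higher and 6.98% lower, and 19.2% and 19.0% with the block. Of 9 genes of the endocrine pancreas, where *neurog3* and *neurod1* act in mammals, 1 was called higher and 2 lower, the latter being *pdx1* and *ins* (named after their values were seen). The block called 4 higher and 2 lower. Among those 4 was *gcg*, with only 4, 0 and 6 reads in the KD libraries and 0 in each control, too few to read as a change. The block called all 13 muscle genes lower. The part of these tissues in the change of the 9 genes was not tested.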

How the data were processed

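Conditions and replicate numbers came from the sample labels. The authors aligned read pairs with Bowtie 0.12.7 to the Ensembl JGI4.1 transcriptome, discarded pairs on transcripts of different genes, and deposited raw read counts for each transcript, without normalization. Discarding such pairs can lower the counts of close paralogs. The 7 header names follow 6 empty fields and were assigned to the 7 value columns in order. Transcripts were summed per gene. Genes needed at least 10 reads in the 6 stage 32 libraries together, and were fitted in edgeR 4.0.16 (R 4.3.3) with TMM scaling and a quasi-likelihood model without a replicate term (legacy option off), Benjamini-Hochberg adjustment, FDR threshold 10%. Standard errors are the log2 coefficient divided by the square root of F. The 95% intervals use 4 degrees of freedom, fewer than the quasi-likelihood test, so they are wider than that test implies. An exact permutation test of 3 against 3 libraries cannot go below p = 0.1. P-values weigh the difference between KD and control against the spread between the libraries, which the labels call biological replicates.

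Same-numbered KD and control libraries deviated together across genes (r = 0.573, 0.586 and 0.316), so the replicate block treated the numbers as pairs. Different numbers gave r of at most 0.00961. Deviations were taken from the mean of each group, which pulls these values down where the same-numbered ones are positive. The low values are therefore no separate support for pairing. The main fit, its intervals and the fits with 1 library left out had no replicate term and did not use this pairing. Alternatives were DESeq2's size factors, library size alone, scaling to 4 reference genes (*gapdh*, *odc1*, *eef1a1* and *rpl8*), no filter, filterByExpr, DESeq2 1.42.0, a replicate block, an FDR of 5%, a prior count of 2, the transcript with the most reads, and leaving out each library. Legacy dispersions were added after seeing the data. The members and lists were chosen with earlier results of these data known. Named were all members and, per network list, the gene with the highest CPM and the 3 largest called changes among genes whose higher group averaged 20 or more reads. A symbol on several genes was read from the gene with most reads. Of 766 genes named by a RefSeq protein, 711 received a symbol. Only the main fit was tested on simulated data, in which libraries were drawn without pairing. The alternatives were not tested in this way.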

Additional observations from a re-analysis of the deposited data

How the results depend on the processing

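The median log2 fold change of the 9 genes was 0.31 to 0.41 over the alternatives and 0.24 to 0.39 when 1 library was left out. The scaling moved the median of all genes from 0.01 to 0.08 at most, with library size alone. Estimates of *neurod1* and *neurod4* had no stable sign. *neurod4* was at -0.0044 with DESeq2 and at -0.0045 with its size factors, and leaving out 1 library gave -0.17 to 0.15 for *neurod4* and -0.19 to 0.07 for *neurod1*, all far from the threshold.
At an FDR of 5%, 1 member was called higher, against 3 at 10%, with 2 other neural bHLH and ebf genes, 2 Notch pathway genes and 3 neuronal transcription factors. The share of all genes called at 5% was not counted, so these counts have no background beside them. Leaving out 1 library gave 0 to 2 members, 2 to 3 other neural bHLH and ebf genes, 2 to 4 Notch pathway genes, 3 to 4 neuronal transcription factors and 0 to 7 structural genes called higher. Over all genes the same fits called 433 to 918 higher, against 1261 with every library kept. With the replicate block 1 member, 1 other neural bHLH gene, 3 Notch pathway genes and 1 structural gene were called lower, and 2 partners and inhibitors, 11 neuronal transcription factors and 13 structural genes higher. Of the partners and inhibitors, 1 was called higher with DESeq2 and 2 with library size alone or the 4 reference genes, and DESeq2 called 1 Notch pathway gene lower. Of all 16944 genes, DESeq2 called 1649 higher and 1740 lower. Library size alone called 1649 higher and the 4 reference genes 1283. The replicate block changed no call of a member other than *neurog2* and *atoh7*. *neurog2* also passed with library size alone (FDR 0.0977). Members at stage 20 at or below 0.5 times the control mean numbered 3, with 4 under library size alone and 2 for the transcript with the most reads. Over all genes 2443 were called, 6468 with the block, 868 without control replicate 3. The cause of these shifts was not tested.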

Other observations

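Late members of the neurod family, *neurod2* and *neurod6*, were scarce at stage 32. *neurod2* measured 0.279, 0.429 and 0.293 CPM in the KD libraries and 0.133, 2.36 and 0.465 CPM in the controls, and *neurod6* measured 0.0769, 0.626 and 0.0709 CPM in KD embryos and 0.106, 1.91 and 0.362 CPM in the controls. *neurod6* was called lower with the replicate block (edgeR FDR 0.0117). Both were highest in control replicate 2, the library that was also highest for *rho* and, among the members, for *neurod1*.

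The genes whose profile lay nearest to the members were sought by the root mean square difference of centred log2 CPM over the 7 libraries, among 14049 other tested genes with a symbol and a mean of at least 20 reads. Nearest to the mean of the 9 genes were *c1orf123* (0.0814), *slc35f1* (0.0825), *gpm6b* (0.0914), *mri1* (0.0941) and *sh3gl3* (0.0993). The members themselves lay farther from that mean, from 0.168 (*neurod4*) to 1.28 (*atoh7*), so it is a profile that no single member had. Nearest to *neurog3* were *ckap2* (0.105), *LOC100495907* (0.109), *LOC100170549* (0.122), *brd2* (0.134) and *serpinf1* (0.143). Among the members, *neurog1* was the nearest to *neurog3* (0.251) and *atoh7* the farthest (1.54).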
